A study of Mus musculus with 8 samples.

Results

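The genes described here were Pdcd1, Lag3, Havcr2, Tigit, Entpd1, Cd160, Btla and Cd96, which encode inhibitory surface proteins of lymphocytes, and Tox, which encodes a transcription factor of T cell exhaustion. They were picked by gene name, and all 9 were found among the 54532 genes of the count table. Gene expression was measured by bulk RNA-seq in 8 tumors collected at the study endpoint, 4 from saline mice and 4 from mAb-DXd/IMQ mice. The hosts were female BALB/cJ mice with an intact immune system, injected under the skin at 6 weeks of age with 4T1-FLuc cells. This line is a mouse triple-negative breast cancer (TNBC) of the same strain that carries firefly luciferase, and the labels name it 4T1. mAb-DXd/IMQ, written HumCD276-Dxd/IMQ in the labels, is a humanized anti-CD276 antibody that carries deruxtecan, a topoisomerase I inhibitor, together with an imidazoquinoline, a Toll-like receptor agonist. The dose was 16 mg/kg by tail vein, repeated every 4 days over 5 courses, and the control mice received saline, which the treatment label calls PBS. Total counts per tumor ran from 45019927 to 69582375 in the saline group and from 34591912 to 51625237 in the mAb-DXd/IMQ group. The study reports a far smaller mean tumor volume at endpoint after mAb-DXd/IMQ than after saline, and extensive cell death in treated tumors. The part of tumor size and cell death in the levels given here was not tested.

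Activated T cells place PD-1, the product of Pdcd1, and other inhibitory receptors on their surface, and ligands on tumor or myeloid cells signal through them to restrain the T cell. When antigen persists, several of these receptors are held together at high levels in a state called exhaustion, in which NFAT factors act downstream of the T cell receptor and TOX helps to set the program. Some of the proteins are also made outside the T cell lineage: TIM-3, the product of Havcr2, and the ATP-hydrolyzing enzyme CD39, the product of Entpd1, are found on macrophages and dendritic cells, and CD39 also on endothelium.

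In mAb-DXd/IMQ tumors, Lag3 and Tox stood below their levels in every saline tumor, Btla and Pdcd1 had lower means with overlapping groups, and Havcr2 had a slightly higher mean. None of these differences passed the test used here. Tumors were compared by edgeR's quasi-likelihood F-test with the false discovery rate (FDR) adjusted over all 18511 genes tested, and a gene was called at an FDR under 0.05 with an absolute log2 fold change above 0.58, a 1.5-fold change. edgeR called 0 of the 9 genes, against 1.06% of all genes tested (0.519% lower and 0.546% higher). At an unadjusted p under 0.05, 4 of the 9 (Lag3, Tox, Entpd1 and Btla) were lower and 0 were higher in mAb-DXd/IMQ tumors, beside 9.79% and 9.13% of all genes tested, together 18.9%. DESeq2 called 3 of the 9, Btla, Lag3 and Tox, all lower, beside 4.36% of the 18569 genes to which it gave an FDR, with 1.95% lower. On the genes tested by edgeR it called the same 3, beside 4.43%. limma-voom called 0 of the 9, beside 0.94% of 18511 genes. The log2 fold change was below 0 for 8 of the 9 and above 0 for 1, beside 47.4% and 52.6% of all genes tested, and its median was −0.54, beside 0.02 over all genes. Its absolute value was above 0.58 for 4 of the 9, all lower, and for 0 higher, beside 5.96% and 10.7% of all genes tested. Groups were fully separate for 2 of the 9, both lower in mAb-DXd/IMQ tumors, as for 13.1% of all genes tested, with 7.1% lower and 5.97% higher. All 9 genes passed the filter on low counts. In bulk tissue, fewer cells that carry a transcript and less of it in each cell cannot be told apart.

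**Figure D1:**
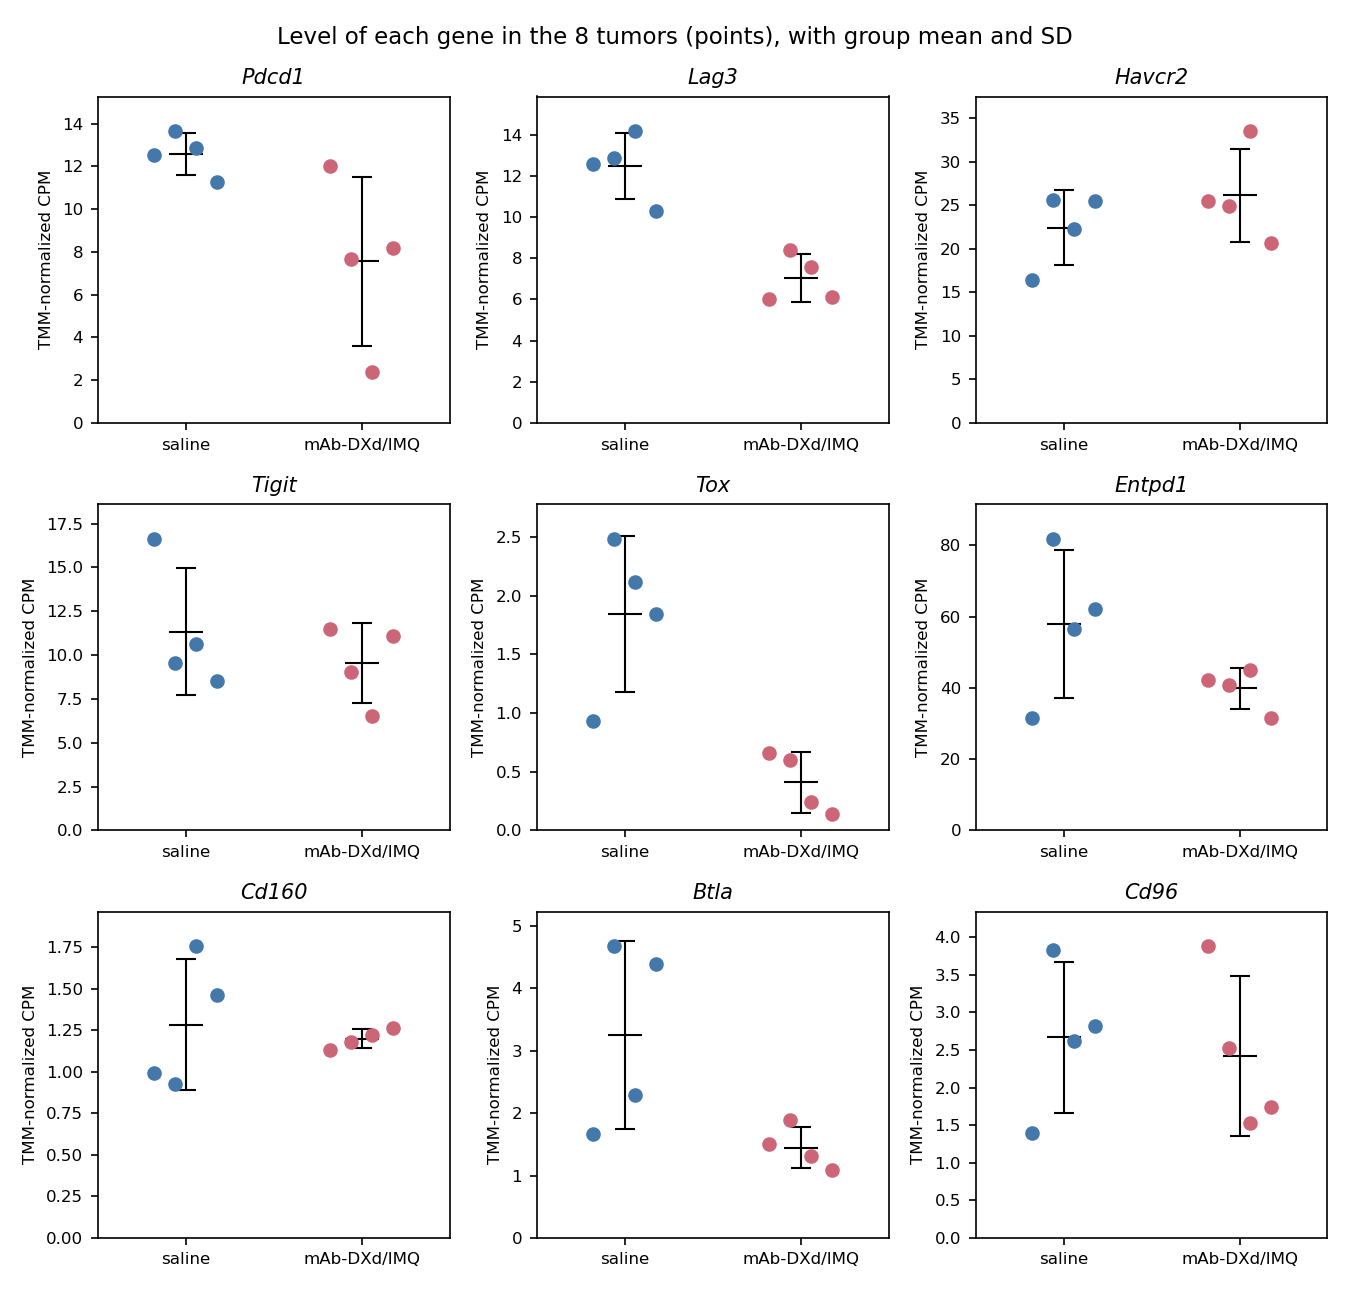
Level of each of the 9 genes in TMM-normalized CPM (y axis) in saline tumors (blue points) and mAb-DXd/IMQ tumors (red points), with group mean and SD (black). The groups are separate for Lag3 and Tox and overlap for the other genes.

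PD-1 is the receptor of PD-L1 and PD-L2 and the target of checkpoint antibodies. Pdcd1 was measured at 12.5, 13.6, 12.9 and 11.3 CPM in saline tumors 1 to 4, and at 12.0, 7.64, 2.40 and 8.18 CPM in mAb-DXd/IMQ tumors 1 to 4. The saline tumors lay close together, while mAb-DXd/IMQ tumor 1 fell within their range and mAb-DXd/IMQ tumor 3 was far below the rest. Mean levels were 12.6 ± 0.988 CPM (SD, n = 4) and 7.56 ± 3.96 CPM (SD, n = 4), with a log2 fold change of −0.73 ± 0.36 (SE) and an edgeR FDR of 0.302. Without mAb-DXd/IMQ tumor 3 the log2 fold change was −0.44.

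Both ligand genes of PD-1 had a lower mean in mAb-DXd/IMQ tumors, and edgeR called Pdcd1lg2. Pdcd1lg2, which encodes PD-L2, a ligand made mainly by macrophages and dendritic cells, was measured at 7.16, 18.2, 9.14 and 8.62 CPM in saline tumors and at 3.03, 3.02, 2.12 and 3.12 CPM in mAb-DXd/IMQ tumors. Every mAb-DXd/IMQ tumor was below every saline tumor, and saline tumor 2 was the highest of all. Pdcd1lg2 fell by 1.93 ± 0.30 (SE) on the log2 scale, with an edgeR FDR of 0.0201. This call was lost without saline tumor 3 or 4 or without mAb-DXd/IMQ tumor 2, 3 or 4, with edgeR FDR values of 0.0665, 0.0846, 0.0518, 0.0514 and 0.0702 in that order. Cd274, which encodes PD-L1 and was named after its values were seen, was measured at 177, 98.8, 113 and 101 CPM in saline tumors and at 90.8, 89.6, 78.5 and 115 CPM in mAb-DXd/IMQ tumors. With overlapping groups, the log2 fold change was −0.39 ± 0.19 (SE; edgeR FDR = 0.304), and it was −0.16 without saline tumor 1.

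NFATC1 belongs to the calcium-regulated NFAT family, which acts on Pdcd1 in stimulated T cells. Nfatc1 was measured at 62.8, 74.4, 59.9 and 68.5 CPM in saline tumors and at 34.7, 48.0, 45.8 and 37.5 CPM in mAb-DXd/IMQ tumors. The groups were separate, and Nfatc1 fell by 0.68 ± 0.13 (SE) on the log2 scale (edgeR FDR = 0.0362). The call held without saline tumor 1 and was lost without any other single tumor, with edgeR FDR values from 0.0520 to 0.136. Which cells carried the Nfatc1 RNA was not tested.

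Promoters of PD-1, its ligand PD-L2 and CD96 are shown with the core letters GGAAA, which NFAT factors bind. A link between Nfatc1 and the levels of these genes was not tested. The sequences are from RefSeq on build GRCm38.p6, each from 250 bases before to 50 bases after a start site. The table held 9 entries for 7 of the 9 genes, Pdcd1, Havcr2, Tigit, Entpd1, Cd160, Btla and Cd96, and none for Lag3 and Tox. The Pdcd1 promoter lies at chr1:94052504-94052803 on the minus strand, that of Pdcd1lg2 at chr19:29410669-29410968 on the plus strand, and that of Cd96 at chr16:46120199-46120498 on the minus strand. Each is written 5′ to 3′ on the strand of its gene, and capitals mark GGAAA or its reverse complement TTTCC.
Pdcd1: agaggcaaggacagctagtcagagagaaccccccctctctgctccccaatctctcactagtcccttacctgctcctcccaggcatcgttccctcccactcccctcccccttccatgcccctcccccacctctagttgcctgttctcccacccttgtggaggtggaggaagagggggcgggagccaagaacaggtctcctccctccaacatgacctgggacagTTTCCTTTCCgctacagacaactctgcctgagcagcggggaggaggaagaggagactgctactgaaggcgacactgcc
Pdcd1lg2: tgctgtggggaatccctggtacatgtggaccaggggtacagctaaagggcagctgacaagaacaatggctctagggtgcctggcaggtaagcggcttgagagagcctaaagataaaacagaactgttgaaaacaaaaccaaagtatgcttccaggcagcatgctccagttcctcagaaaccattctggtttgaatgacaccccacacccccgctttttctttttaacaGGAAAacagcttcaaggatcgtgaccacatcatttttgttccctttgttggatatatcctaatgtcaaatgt
Cd96: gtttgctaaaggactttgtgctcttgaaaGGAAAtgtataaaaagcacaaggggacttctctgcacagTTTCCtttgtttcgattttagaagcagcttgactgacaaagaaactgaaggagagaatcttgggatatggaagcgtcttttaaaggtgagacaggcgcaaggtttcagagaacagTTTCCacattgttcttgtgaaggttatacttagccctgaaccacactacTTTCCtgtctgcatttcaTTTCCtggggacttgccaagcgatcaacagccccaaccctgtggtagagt
The Pdcd1 window held 2 matches next to each other, the Pdcd1lg2 window 1, and the Cd96 window 5, the most of the 9 entries. GGAAA was present in 5 of the 9 entries and in 61.3% of all 32851 promoters. Of 6 other motifs searched on both strands, the RUNX letters TGTGGT were in 7 of the 9 entries and in 16.8% of all promoters. TTCNNNGAA, the element bound by STAT factors, was in 2 entries and 8.3% of all promoters, AP-1 (TGANTCA) in 1 and 7.81%, and TCF/LEF (CTTTGA) in 1 and 16%. The IRF repeat (GAAA, any 2 bases, GAAA) and the NR4A element AAAGGTCA were in 0 entries and in 3.44% and 1.51% of all promoters. In these 9 entries no GGAAA match overlapped another of the motifs. A match describes the letters of the window only.

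LAG-3 binds MHC class II and is often held on the same T cells as PD-1. Lag3 was measured at 12.6, 12.8, 14.2 and 10.3 CPM in saline tumors and at 6.02, 8.42, 7.58 and 6.10 CPM in mAb-DXd/IMQ tumors. All 4 mAb-DXd/IMQ tumors were below the lowest saline tumor. The means were 12.5 ± 1.59 CPM (SD, n = 4) and 7.03 ± 1.17 CPM (SD, n = 4), a saline mean 1.77 times the other. With a log2 fold change of −0.83 ± 0.18 (SE) and an edgeR FDR of 0.0517, Lag3 lay just outside the FDR limit. It was called in 9 of 24 alternative analyses, among them DESeq2 (FDR = 6.51e-04) and a correction for gene length (edgeR FDR = 0.0464), and in 0 of the 8 that left out a tumor. The FDR over these alternatives ran from 4.72e-04 to 1.000.

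TOX is a DNA-binding protein that exhausted T cells need to persist. Tox was measured at 0.933, 2.48, 2.11 and 1.84 CPM in saline tumors and at 0.660, 0.600, 0.240 and 0.141 CPM in mAb-DXd/IMQ tumors. The groups did not overlap, though saline tumor 1 came close to mAb-DXd/IMQ tumors 1 and 2. These levels rested on 46, 110, 118 and 126 counts in saline tumors and on 32, 28, 11 and 5 counts in mAb-DXd/IMQ tumors. Group means were 1.84 ± 0.661 CPM (SD, n = 4) and 0.410 ± 0.258 CPM (SD, n = 4), and the log2 fold change was −2.14 ± 0.50 (SE), the lowest of the 9 genes. The edgeR FDR was 0.0598. Tox was called in 5 of 23 alternative analyses, with an FDR of 9.22e-04 by DESeq2 and of 0.0452 by edgeR's newer quasi-likelihood method, and in 0 of the 8 that left out a tumor. Its FDR over all alternatives ran from 9.22e-04 to 0.452. With the correction for gene length, Tox was not called, at −2.07 (edgeR FDR = 0.0866). Exons of Tox share 260 bases with Gm11802 on the other strand, which held 8 counts in all beside 476 for Tox.

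Of 11 other transcription factors of exhaustion, 10 were tested, and edgeR called 0 higher and 1 lower, Nfatc1. The log2 fold change was below 0 for 8 and above 0 for 2, with a median of −0.32. Irf4, a factor of T cell receptor signaling, had the lowest value, −1.26 ± 0.41 (SE; edgeR FDR = 0.131). Eomes, a factor of cytotoxic T and NK cells, had the highest, 0.89 ± 0.25 (SE; edgeR FDR = 0.0885), with 2.74 to 3.25 CPM in saline tumors and 4.22 to 8.15 CPM in mAb-DXd/IMQ tumors. Of 10 genes of progenitor T cells, which sustain the exhausted pool, 10 were tested and edgeR called 0, with 3 lower and 1 higher at an unadjusted p under 0.05. The median was −0.36. Id3, the most abundant, was at 52.0 to 84.5 CPM in saline tumors and 58.1 to 133 CPM in mAb-DXd/IMQ tumors. Which cells carried the RNA of this list was not tested. Tcf7, the factor that marks progenitor cells, was at 6.47, 8.96, 8.38 and 7.69 CPM in saline tumors and at 13.2, 9.51, 18.7 and 9.61 CPM in mAb-DXd/IMQ tumors. These groups were separate, with a log2 fold change of 0.69 ± 0.23 (SE; edgeR FDR = 0.142). Slamf6, a receptor on the same cells, had the lowest value in that list, −0.98 ± 0.37 (SE; edgeR FDR = 0.186), and was at −0.56 without saline tumor 2.

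**Figure D2:**
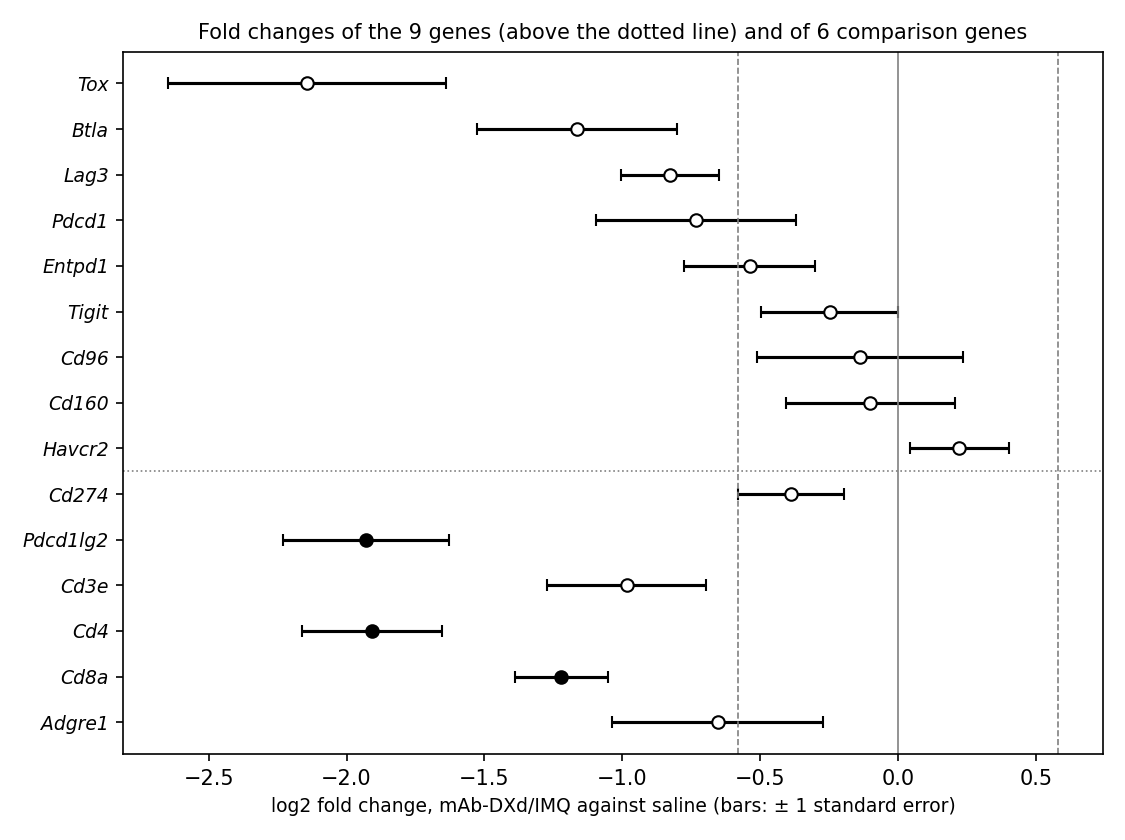
Log2 fold change of each gene (x axis, mAb-DXd/IMQ against saline) with bars of 1 standard error for the 9 genes, ordered by value, and below the dotted line for 6 comparison genes. Filled points passed both thresholds; dashed lines mark an absolute log2 fold change of 0.58. Havcr2 is the only 1 of the 9 above 0.

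TIGIT and CD96 compete with the activating receptor CD226 for nectin-family ligands. Tigit was measured at 16.6, 9.55, 10.6 and 8.53 CPM in saline tumors and at 11.5, 9.06, 6.53 and 11.1 CPM in mAb-DXd/IMQ tumors. Saline tumor 1 was the highest and mAb-DXd/IMQ tumor 3 the lowest, and the other tumors were mixed. The log2 fold change was −0.25 ± 0.25 (SE; edgeR FDR = 0.633), and without saline tumor 1 it was −0.01. Cd96 was measured at 1.40, 3.84, 2.62 and 2.82 CPM in saline tumors and at 3.88, 2.53, 1.53 and 1.74 CPM in mAb-DXd/IMQ tumors. Both groups spanned nearly the same range, and the log2 fold change was −0.14 ± 0.37 (SE; edgeR FDR = 0.882). It was above 0 without saline tumor 2 (0.08) or without mAb-DXd/IMQ tumor 3 (0.03).

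Of 11 tested ligands of the 9 genes, 5 were higher in mAb-DXd/IMQ tumors without overlap, beside 5.97% of all genes tested. They were Nectin2 and Pvr, and the TIM-3 ligand genes Lgals9, Ceacam1 and Hmgb1. The other nectin genes of the list had overlapping groups. Lgals9, Ceacam1 and Hmgb1 were named after their values were seen, and Lgals9 was among the 5 by a narrow gap. Its highest saline level was 162.107 CPM and its lowest mAb-DXd/IMQ level 162.145 CPM. Nectin2, which binds TIGIT, was measured at 42.0, 37.3, 43.3 and 35.3 CPM in saline tumors and at 61.8, 52.8, 62.8 and 52.9 CPM in mAb-DXd/IMQ tumors. The groups were well apart. Its edgeR FDR was 0.0450, but its log2 fold change of 0.54 ± 0.11 (SE) was below the fold limit. With upper-quartile factors it passed both limits, at 0.59 (edgeR FDR = 0.0362). The FDR limit was missed without any single tumor (edgeR FDR from 0.0607 to 0.155), with the correction for gene length (0.0816) and with that for length and GC content (0.0883). Pvr, the ligand with the highest affinity for TIGIT and named after its values were seen, was at 39.5, 37.6, 42.0 and 38.2 CPM in saline tumors and at 53.8, 49.0, 45.6 and 60.9 CPM in mAb-DXd/IMQ tumors. It too had separate groups, with a log2 fold change of 0.41 ± 0.11 (SE; edgeR FDR = 0.0858). Cd226, also named after its values were seen, had overlapping groups and a log2 fold change of −0.74 ± 0.39 (SE; edgeR FDR = 0.335).

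**Figure D3:**
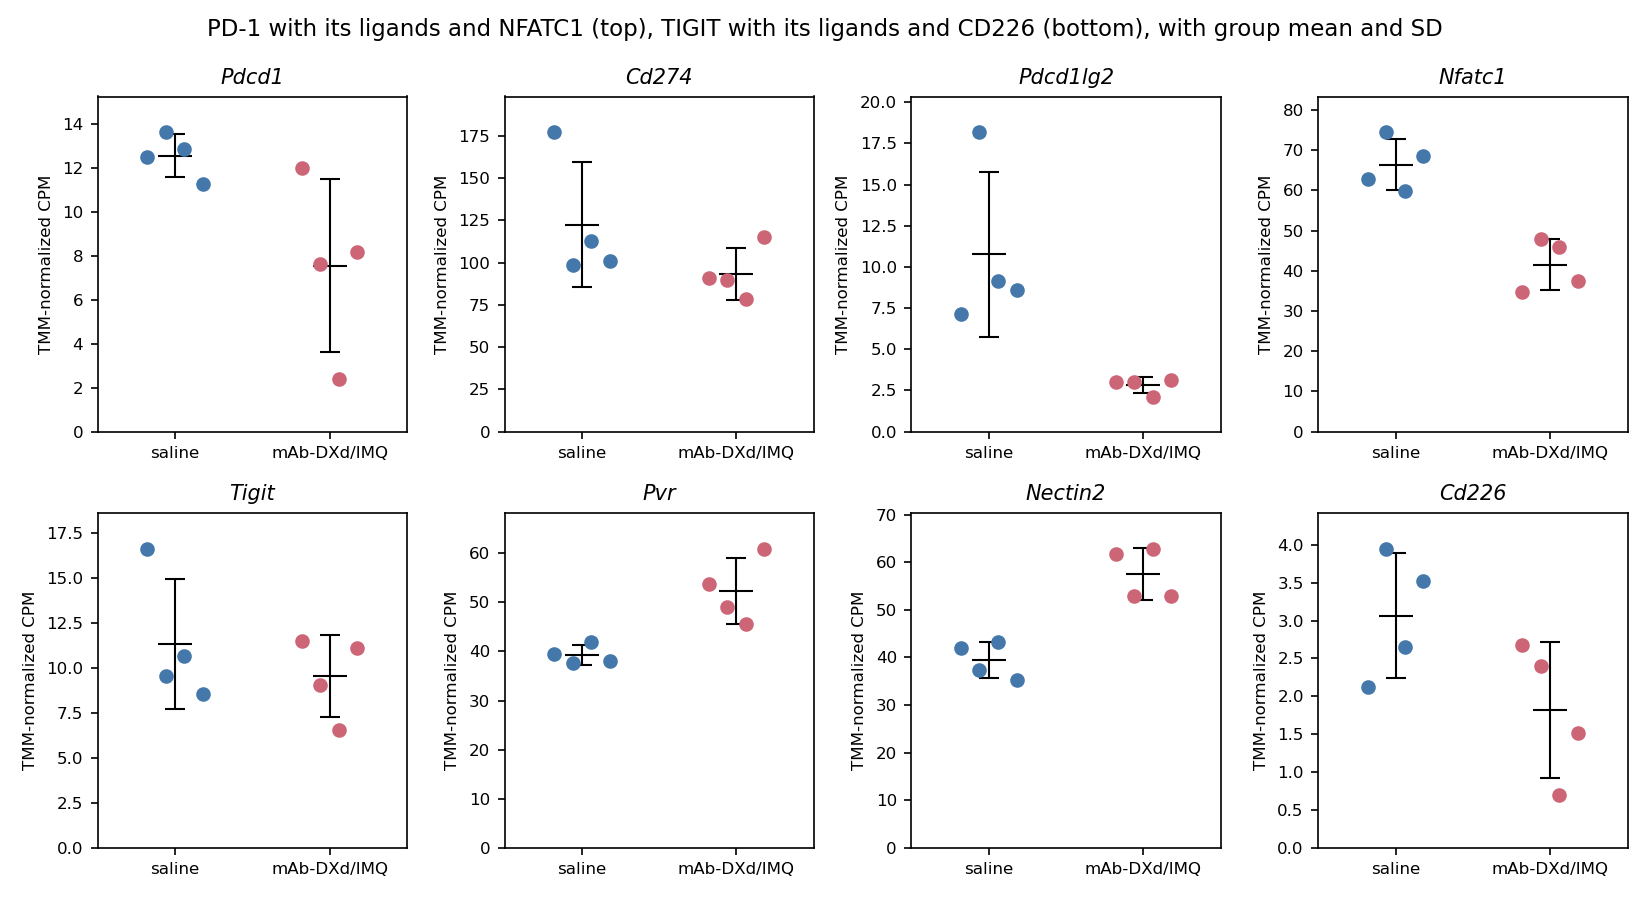
Level in TMM-normalized CPM (y axes) of Pdcd1, its ligands Cd274 and Pdcd1lg2, and Nfatc1 (top), and of Tigit, its ligands Pvr and Nectin2, and Cd226 (bottom), in saline (blue) and mAb-DXd/IMQ (red) tumors with group mean and SD. The groups are separate for Pdcd1lg2, Nfatc1, Pvr and Nectin2.

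BTLA and CD160 both bind HVEM, the product of Tnfrsf14. Btla was measured at 1.66, 4.67, 2.29 and 4.39 CPM in saline tumors and at 1.51, 1.88, 1.31 and 1.10 CPM in mAb-DXd/IMQ tumors. Saline tumors 2 and 4 were high, and saline tumor 1 lay below mAb-DXd/IMQ tumor 2. The log2 fold change was −1.16 ± 0.36 (SE; edgeR FDR = 0.122), and only DESeq2 called it among the alternatives (FDR = 0.0255, in a range from 0.0255 to 1.000). Cd160, found on NK cells and some CD8+ T cells, was measured at 0.993, 0.925, 1.76 and 1.46 CPM in saline tumors and at 1.13, 1.18, 1.22 and 1.26 CPM in mAb-DXd/IMQ tumors. The mAb-DXd/IMQ tumors sat in the middle of the saline range, and the log2 fold change was −0.10 ± 0.31 (SE; edgeR FDR = 0.897). It was 0.08 without saline tumor 3. Exons of Cd160 share 68 bases with the antisense gene Pdzk1, which held 41 counts in all beside 499 for Cd160. Whether counting used the strand is not given in the sources used here, so reads of the shared bases cannot be assigned for Cd160 or Tox.

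TIM-3 binds galectin-9, CEACAM1 and HMGB1. Their genes Lgals9, Ceacam1 and Hmgb1 had log2 fold changes of 0.34 ± 0.15, 0.35 ± 0.26 and 0.26 ± 0.11 (SE). The edgeR FDR values were 0.248, 0.513 and 0.228 in that order. Havcr2 was measured at 16.4, 25.6, 22.2 and 25.5 CPM in saline tumors and at 25.5, 24.9, 33.5 and 20.7 CPM in mAb-DXd/IMQ tumors. Saline tumor 1 was the lowest and mAb-DXd/IMQ tumor 3 the highest, with the rest intermingled. Mean levels were 22.4 ± 4.29 CPM (SD, n = 4) and 26.1 ± 5.33 CPM (SD, n = 4), and the log2 fold change was 0.22 ± 0.18 (SE; edgeR FDR = 0.543). It was 0.10 without saline tumor 1 and 0.08 without mAb-DXd/IMQ tumor 3.

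CD39 and CD73, the product of Nt5e, turn extracellular ATP into adenosine, which inhibits T cells through its receptors. Entpd1 was measured at 31.4, 81.8, 56.5 and 62.0 CPM in saline tumors and at 42.2, 40.8, 44.9 and 31.7 CPM in mAb-DXd/IMQ tumors. Of the saline tumors, 3 were above every mAb-DXd/IMQ tumor, and saline tumor 1 was the lowest of all 8. The log2 fold change was −0.54 ± 0.24 (SE; edgeR FDR = 0.250). It was −0.74 without saline tumor 1 (edgeR FDR = 0.0563) and −0.33 without saline tumor 2. Of the 6 genes that complete the adenosine pathway, 5 were tested and edgeR called 0, with 1 lower and 0 higher at an unadjusted p under 0.05. Their median log2 fold change was −0.19, and values ran from −0.68 ± 0.26 (SE) for the receptor gene Adora3 to 0.50 ± 0.27 (SE) for Adora2b. Nt5e, named after its values were seen, was measured at 595 to 813 CPM in saline tumors and at 438 to 671 CPM in mAb-DXd/IMQ tumors, with a log2 fold change of −0.34 ± 0.17 (SE; edgeR FDR = 0.303).

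Levels of different genes were compared per kilobase of gene length. In saline tumors the mean level was 12.3 ± 3.95 CPM per kb (SD, n = 4) for Tigit, 10.4 ± 3.72 for Entpd1, 8.24 ± 1.58 for Havcr2, 6.52 ± 0.512 for Pdcd1 and 5.91 ± 0.756 for Lag3. Tigit was above Entpd1 in 2 of the 4 saline tumors, and without saline tumor 1 their means were 10.4 and 12.0 CPM per kb. Neighbors among these 5 genes had overlapping ranges. A gap separated them from Cd96, at 1.22 ± 0.458 CPM per kb, Btla, at 0.958 ± 0.442, and Cd160, at 0.486 ± 0.149, whose ranges overlapped in turn. Tox was the lowest, at 0.242 ± 0.0869 CPM per kb, below Cd160 in every tumor. In mAb-DXd/IMQ tumors Tigit was again first in mean level, at 10.4 ± 2.48 CPM per kb (SD, n = 4), with a range that overlapped that of Havcr2, at 9.61 ± 1.96. Entpd1 followed at 7.15 ± 1.03, Pdcd1 at 3.92 ± 2.05 and Lag3 at 3.33 ± 0.554 CPM per kb. Cd96 was at 1.11 ± 0.487, Cd160 at 0.454 ± 0.0213, Btla at 0.427 ± 0.0986 and Tox at 0.0539 ± 0.0339 CPM per kb. Lag3 was above Cd96 in all 8 tumors with no overlap of their ranges.

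T cell markers were measured in every tumor. Of 14 markers, all were tested, and edgeR called 3 lower and 0 higher, while 11 were not called. All 14 had a log2 fold change below 0, with a median of −1.03, and the groups did not overlap for 9 of them. Of all genes tested, 0.519% were called lower, 47.4% had a log2 fold change below 0 and 7.1% were lower without overlap. The 14 markers summed to 101, 151, 145 and 141 CPM in saline tumors and 92.1, 80.7, 49.9 and 69.6 CPM in mAb-DXd/IMQ tumors, with no overlap. Without Cd8a the sums of the groups overlapped, at 72.8 CPM in saline tumor 1 and 73.4 CPM in mAb-DXd/IMQ tumor 1. Cd8a, the most abundant of them, fell by 1.22 ± 0.17 (SE) on the log2 scale (edgeR FDR = 0.0201), from 28.2, 37.4, 38.5 and 34.1 CPM in saline tumors to 18.8, 15.1, 11.1 and 14.2 CPM. Cd4, the coreceptor of helper and regulatory T cells, fell by 1.91 ± 0.25 (SE; edgeR FDR = 0.0201), from 4.48, 8.30, 7.17 and 9.22 CPM to 2.02, 2.14, 1.66 and 1.94 CPM. Both calls were lost without saline tumor 3, saline tumor 4 or mAb-DXd/IMQ tumor 4, with edgeR FDR values of 0.0657, 0.0846 and 0.0694. Cd2, an adhesion receptor, fell by 1.44 ± 0.30 (SE; edgeR FDR = 0.0458), and this call was lost without any single tumor, with edgeR FDR values from 0.0518 to 0.155. Cd3e had a log2 fold change of −0.98 ± 0.29 (SE; edgeR FDR = 0.106), and Trbc1 had the highest value of the list, −0.04 ± 0.28 (SE; edgeR FDR = 0.959). Of 6 markers of regulatory T cells, edgeR called 0, with 2 lower and 0 higher at an unadjusted p under 0.05. Their median was −0.73, and values ran from −1.66 ± 0.48 (SE; edgeR FDR = 0.101) for Foxp3 to 0.00 ± 0.20 (SE; edgeR FDR = 0.999) for Il2ra. Their summed level was 13.4 to 18.6 CPM in saline tumors and 10.4 to 13.3 CPM in mAb-DXd/IMQ tumors, and Il2ra was the most abundant. The part of T cell content in the levels of the 9 genes was not tested.

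Each gene was also divided by the summed CPM of the CD3 genes Cd3d, Cd3e, Cd3g and Cd247, which encode the signaling chains of the T cell receptor, as a description with no test. The CD3 sum was 22.3, 37.3, 36.2 and 27.0 CPM in saline tumors and 21.6, 17.9, 10.4 and 17.7 CPM in mAb-DXd/IMQ tumors. The groups did not overlap, although saline tumor 1 and mAb-DXd/IMQ tumor 1 nearly met. Since this divisor was lower in mAb-DXd/IMQ tumors, 97.5% of all genes tested had a higher mean ratio there, and the median over genes was 1.90 times the saline ratio. Pdcd1 per CD3 was 0.563, 0.365, 0.355 and 0.418 in saline tumors and 0.556, 0.426, 0.232 and 0.461 in mAb-DXd/IMQ tumors. Lag3 per CD3 was 0.566, 0.344, 0.391 and 0.383 in saline tumors and 0.279, 0.469, 0.731 and 0.344 in mAb-DXd/IMQ tumors. For both genes the groups overlapped and the means differed little, at 0.984 times the saline mean for Pdcd1 and 1.08 times for Lag3.

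Tox per CD3 was 0.0419, 0.0665, 0.0583 and 0.0684 in saline tumors and 0.0305, 0.0334, 0.0232 and 0.00792 in mAb-DXd/IMQ tumors. Every mAb-DXd/IMQ tumor was below every saline tumor, and the mean was 0.404 times the saline mean. Of all genes tested, 11 (0.0594%) were lower without overlap on this measure. Cd4, whose profile was among the closest to that of Tox, and Pdcd1lg2 were also among these 11. The ratios of Tox in mAb-DXd/IMQ tumors rested on 32, 28, 11 and 5 counts of Tox. Havcr2 per CD3 was 0.738, 0.686, 0.613 and 0.944 in saline tumors and 1.18, 1.39, 3.23 and 1.17 in mAb-DXd/IMQ tumors. It was higher without overlap, as were 37.9% of all genes tested, and mAb-DXd/IMQ tumor 3 was far above the others. The mean ratio to CD3 was 1.79 times the saline mean for Cd160, 1.65 for Cd96, 1.42 for Tigit, 1.39 for Entpd1 and 0.852 for Btla, and in each of these the groups overlapped.

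**Figure D4:**
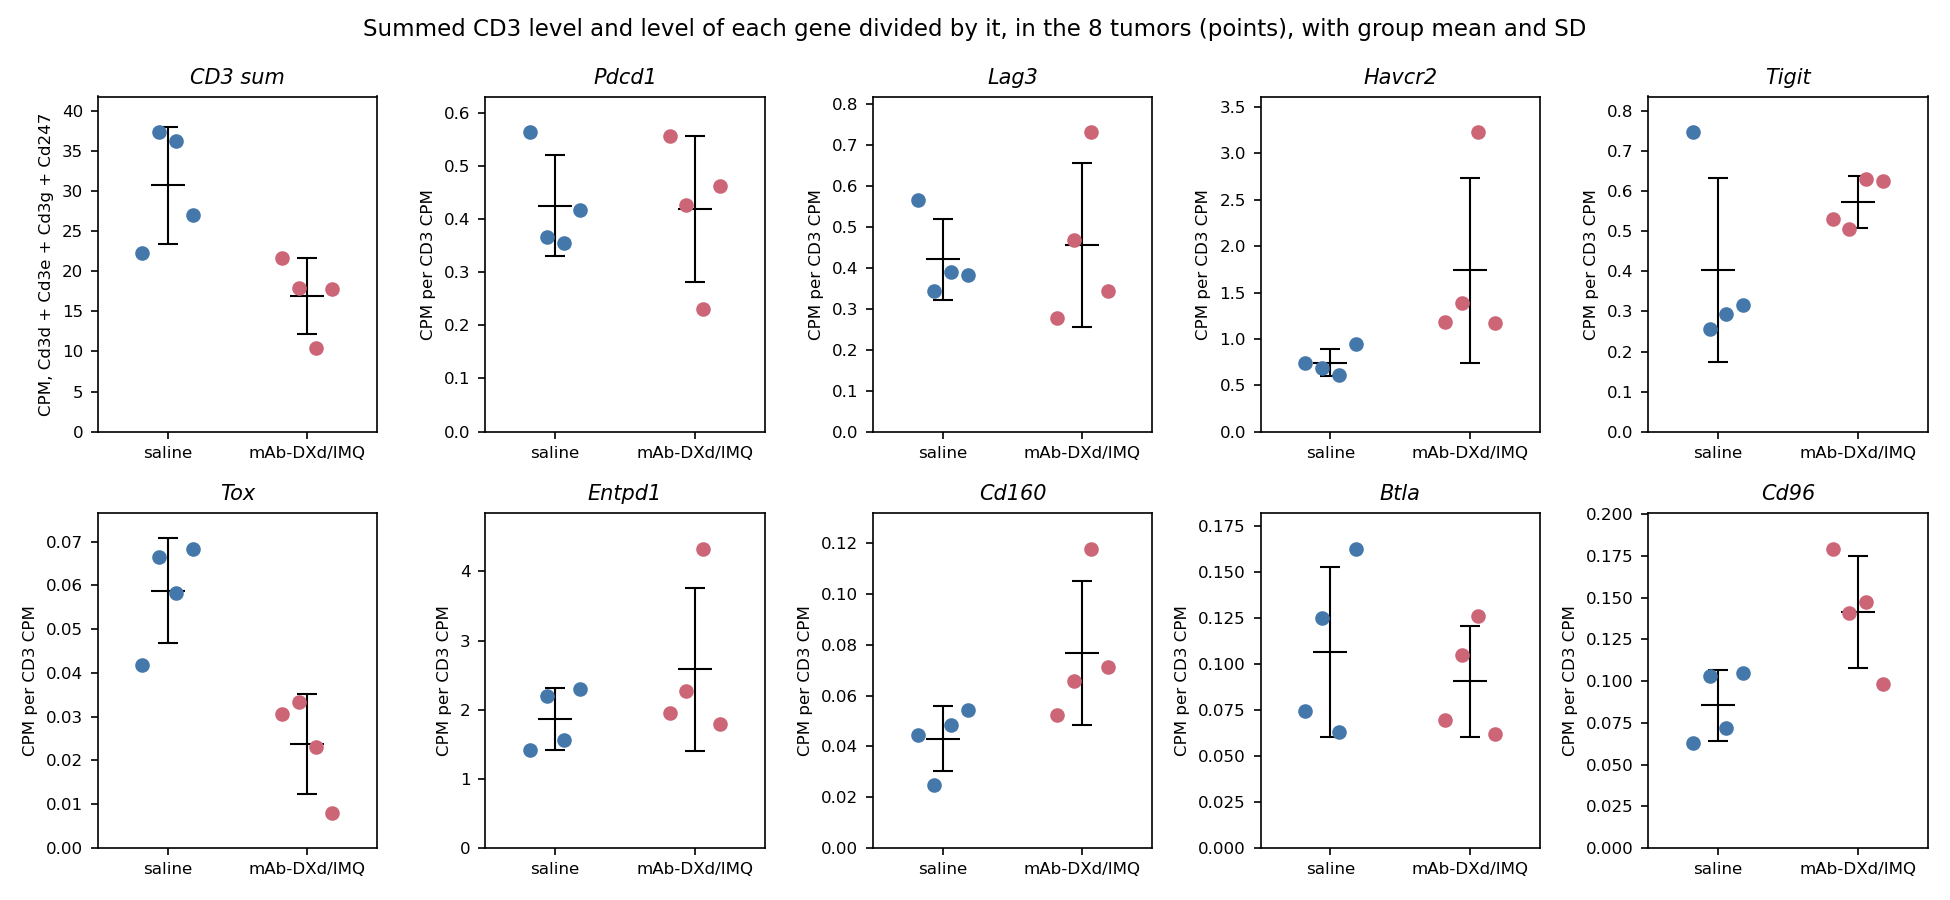
Summed CPM of Cd3d, Cd3e, Cd3g and Cd247 (first panel) and CPM of each of the 9 genes divided by that sum (other panels) in saline (blue) and mAb-DXd/IMQ (red) tumors, with group mean and SD (black). Tox is lower and Havcr2 higher in all 4 mAb-DXd/IMQ tumors, and the groups overlap for the other 7 genes.

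Other members of the pathway were grouped by role. Of 13 ligands of the 9 genes, 11 were tested, and edgeR called 1 lower, Pdcd1lg2, and 0 higher. The median log2 fold change was 0.26, with 7 above 0 and 4 below 0. The groups did not overlap for 5 that were higher in mAb-DXd/IMQ tumors and 1 that was lower, beside 5.97% and 7.1% of all genes tested. Of 10 other inhibitory receptors, all were tested and edgeR called 1, higher, which was Klrg1, a receptor for cadherins on differentiated T and NK cells. Klrg1 was measured at 0.892, 0.677, 0.752 and 0.848 CPM in saline tumors and at 2.78, 1.71, 3.76 and 2.61 CPM in mAb-DXd/IMQ tumors. All mAb-DXd/IMQ tumors were above all saline tumors, and Klrg1 rose by 1.77 ± 0.30 (SE) on the log2 scale (edgeR FDR = 0.0277). The call was lost without saline tumor 2, 3 or 4 or mAb-DXd/IMQ tumor 3 or 4, with edgeR FDR values from 0.0579 to 0.101. The other inhibitory receptors had a median of −0.40, with 8 below 0. Cd5 had the lowest value, −1.20 ± 0.44 (SE; edgeR FDR = 0.172). Klrc1, which encodes the NKG2A receptor and was named after its values were seen, was measured at 7.40 to 12.8 CPM in saline tumors and 4.35 to 6.34 CPM in mAb-DXd/IMQ tumors. For Klrc1 the log2 fold change was −0.97 ± 0.21 (SE; edgeR FDR = 0.0518). Klrc1 was called in 6 of 24 alternative analyses, DESeq2 among them, and in 0 of the 8 that left out a tumor. A list of activating genes held Cd226, Cd28, Icos, Tnfsf14 and Ltbr, not all of which share ligands with the 9 genes. Of these 5, edgeR called 0, with 4 lower and 0 higher at an unadjusted p under 0.05. All 5 were below 0, from −1.06 ± 0.43 (SE; edgeR FDR = 0.214) for Cd28 to −0.23 ± 0.10 (SE; edgeR FDR = 0.255) for Ltbr, with a median of −0.83.

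**Figure D5:**
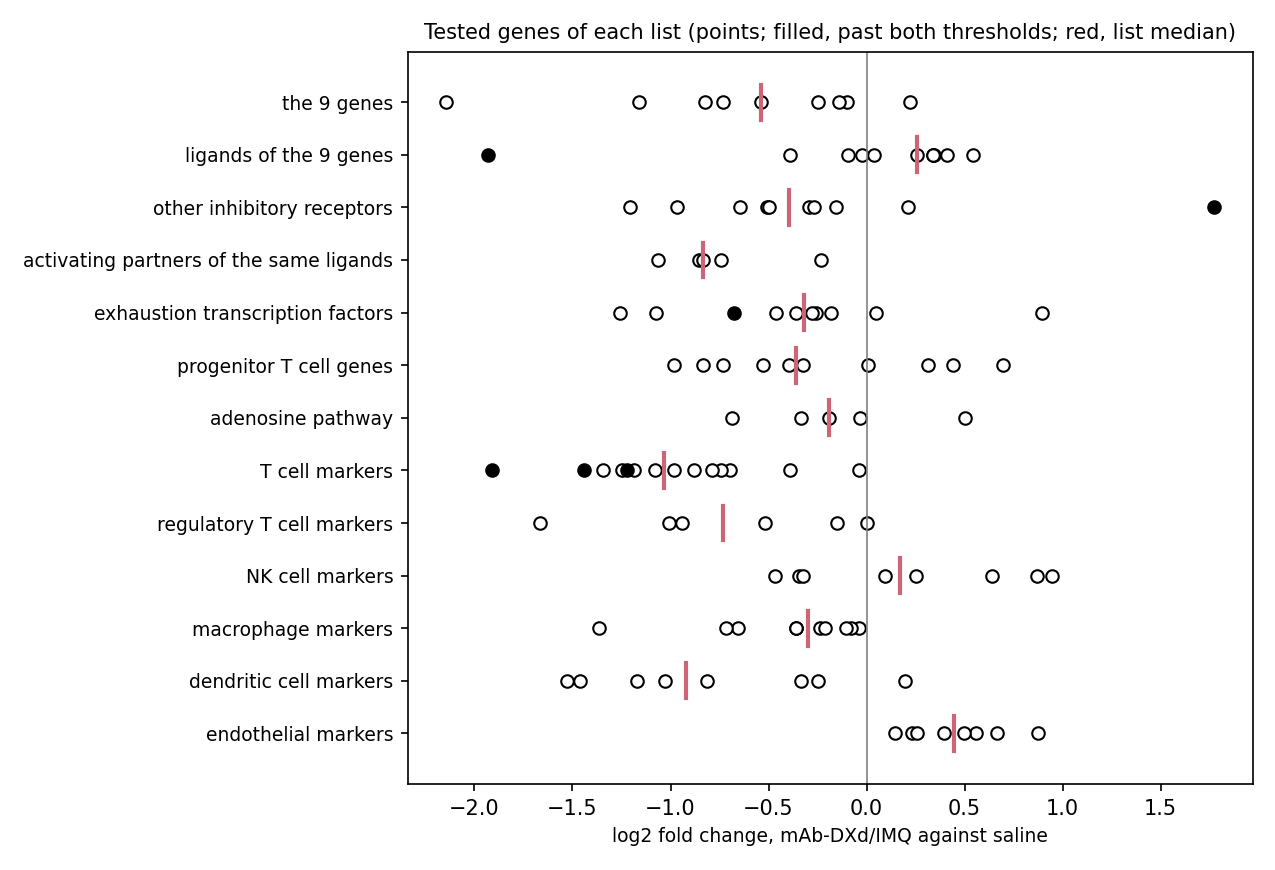
Log2 fold change (x axis, mAb-DXd/IMQ against saline) of each tested gene of 13 lists, with filled points for genes past both thresholds and a red bar at the list median. The median is −1.03 for T cell markers, −0.54 for the 9 genes and 0.26 for their ligands. The list drawn as activating partners of the same ligands holds genes that do not all share these ligands.

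Cell types that carry some of the 9 genes, or could change their share of the RNA, were followed by marker lists. Of 10 macrophage markers, edgeR called 0, with 1 lower and 0 higher at an unadjusted p under 0.05. All 10 were below 0, with a median of −0.30. Their summed level was 959, 3025, 1711 and 1984 CPM in saline tumors and 1765, 1452, 1551 and 1180.2 CPM in mAb-DXd/IMQ tumors, and C1qa was the most abundant. Saline tumor 1 was the lowest of all 8, as it was for Entpd1 and Havcr2. Values ran from −1.37 ± 0.31 (SE; edgeR FDR = 0.0574) for Mrc1 to −0.04 ± 0.19 (SE; edgeR FDR = 0.941) for Cd68, and Adgre1 was at −0.65 ± 0.38 (SE; edgeR FDR = 0.387). Without saline tumor 2, Adgre1 was at −0.32 and Mrc1 at −0.90. Mrc1 was called in 6 of 24 alternative analyses, DESeq2 and edgeR without saline tumor 1 among them. Of 8 dendritic cell markers, edgeR called 0, with 4 lower and 0 higher at an unadjusted p under 0.05 and a median of −0.92. Clec9a had the lowest value, −1.53 ± 0.58 (SE), and Itgax, the most abundant, the highest, 0.20 ± 0.21 (SE). Their summed level was 90.1, 120, 109 and 117 CPM in saline tumors and 92.0, 90.0, 154 and 91.5 CPM in mAb-DXd/IMQ tumors. The high sum of mAb-DXd/IMQ tumor 3 came from Itgax, at 128 CPM there and 64.2 to 66.8 CPM in the other mAb-DXd/IMQ tumors. Without Itgax the markers summed to 25.7 CPM in that tumor and to 24.7 to 27.8 CPM in the other 3. Of 8 endothelial markers, edgeR called 0, with 0 lower and 2 higher at an unadjusted p under 0.05. All 8 were above 0, with a median of 0.45, from 0.14 ± 0.24 (SE) for Vwf to 0.87 ± 0.29 (SE) for Emcn, and Pecam1, the most abundant, was at 0.23 ± 0.18 (SE). Their summed level was 97.7, 236, 169 and 180 CPM in saline tumors and 237, 211, 229 and 203 CPM in mAb-DXd/IMQ tumors, and saline tumor 1 was again the lowest. The part of these cells in the levels of Entpd1 and Havcr2 was not tested.

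NK cells carry Tigit, Cd96 and Cd160. Of 10 NK cell markers, 8 were tested and edgeR called 0, with 1 lower and 2 higher at an unadjusted p under 0.05, and a median of 0.17. Values ran from −0.47 ± 0.20 (SE) for Klrk1 to 0.95 ± 0.27 (SE) for Prf1, the most abundant, and Ncr1 was at 0.64 ± 0.30 (SE; edgeR FDR = 0.287). Klra8 had 0 counts in all 8 tumors. The summed level was 89.9, 69.3, 84.2 and 85.0 CPM in saline tumors and 91.3, 99.5, 82.5 and 130.0 CPM in mAb-DXd/IMQ tumors. BTLA is also found on B cells. Of 4 B cell markers with enough counts to be tested, edgeR called 0, with 1 lower and 1 higher at an unadjusted p under 0.05, Cd79b at −1.53 ± 0.49 (SE) and Pax5 at 2.25 ± 0.74 (SE). Cd79b was the most abundant of them. Of 7 neutrophil markers, 6 were tested and edgeR called 1, Csf3r, which fell by 0.80 ± 0.16 (SE; edgeR FDR = 0.0402). Their median was −1.27, from −1.81 ± 0.43 (SE) for S100a9, the most abundant, to 0.32 ± 0.45 (SE) for Mmp8, and their sum was 86.1 to 227 CPM in saline tumors and 34.8 to 70.3 CPM in mAb-DXd/IMQ tumors. Of 6 mast cell markers, edgeR called 1, Cpa3, which fell by 2.84 ± 0.58 (SE; edgeR FDR = 0.0433), and all 6 were below 0, with a median of −2.52 and Kit the highest at −0.53 ± 0.17 (SE). Their sum, led by Tpsb2, was 166, 28.8, 125 and 159 CPM in saline tumors and 17.5, 42.6, 16.4 and 36.7 CPM in mAb-DXd/IMQ tumors. The calls of Csf3r and Cpa3 were each lost in 7 of the 8 analyses that left out a tumor, with edgeR FDR values from 0.0587 to 0.134 and from 0.0602 to 0.143, and held without mAb-DXd/IMQ tumor 1 and without saline tumor 2, respectively. The part of these cells in the levels of the 9 genes was not tested.

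The tumor label was checked against epithelial and receptor genes. Of 6 epithelial markers, edgeR called 0, with 0 lower and 0 higher at an unadjusted p under 0.05, and a median of 0.31. Krt18 was the most abundant, and the sum was 1684 to 2460.4 CPM in saline tumors and 1956 to 3192 CPM in mAb-DXd/IMQ tumors. Epcam was at 0.44 ± 0.30 (SE; edgeR FDR = 0.461), Krt8 at 0.01 ± 0.17 (SE) and Krt5 at 1.98 ± 1.83 (SE). Krt5 was at 112 CPM in mAb-DXd/IMQ tumor 2 and at 0.206 to 1.05 CPM in the other mAb-DXd/IMQ tumors. Without mAb-DXd/IMQ tumor 2 its log2 fold change was −3.71. Of the receptors whose protein TNBC lacks, Pgr was at 0.161 to 0.808 CPM, Esr1 at 13.6 to 20.6 CPM and Erbb2 at 74.3 to 118 CPM over the 8 tumors, so the RNA of Esr1 and Erbb2 was present. edgeR called 0 of these 3, with 1 lower and 0 higher at an unadjusted p under 0.05 and a median of −0.02. Log2 fold changes were −0.29 ± 0.13 (SE) for Esr1, 0.67 ± 0.55 (SE) for Pgr and −0.02 ± 0.16 (SE) for Erbb2.

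The 9 genes did not vary as a block across tumors. Saline tumor 2 was the highest of its group for 6 of them, Pdcd1, Havcr2, Tox, Entpd1, Btla and Cd96, and saline tumor 1 the lowest for 5, Havcr2, Tox, Entpd1, Btla and Cd96, yet the highest for Tigit. In the other group, mAb-DXd/IMQ tumor 3 was the lowest for Pdcd1, Tigit and Cd96 and the highest for Havcr2 and Entpd1. Entpd1 and Havcr2 together made up 50.6% to 69.1% of the summed CPM of the 9 genes in saline tumors and 63.9% to 79.0% in mAb-DXd/IMQ tumors. These shares used CPM not divided by gene length, which was 5580 bases for Entpd1 and 919 bases for Tigit. Likeness of profiles was measured as the root mean square difference of log2 CPM, each gene centered on its mean over the 8 tumors, among 14645 other genes with a mean of at least 1 CPM. The closest genes were Bnip3 (0.178), Tnfsf14 and Padi1 for Pdcd1, and Ciita (0.145), Klf13 and Usp9x for Lag3. Slc14a1 (0.547), Cd4 and Cd5 were closest to Tox, at a larger distance. For Entpd1 they were Mpeg1 (0.0850), Fermt3 and Fli1, and for Havcr2 Spry4 (0.0558), Heatr1 and Nol8. Tigit was closest to Klf10 (0.105), Pdk1 and Slc30a4, and Cd96 to Susd3 (0.143), Clybl and Abhd5. Btla was closest to Kbtbd11 (0.213), Rtn1 and Ccr7, and Cd160 to Amot (0.156), AW112010 and Zfat.

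Across the table, edgeR called 197 genes, 101 higher and 96 lower in mAb-DXd/IMQ tumors, or 51.3% higher. With upper-quartile factors the split was 145 higher and 73 lower, or 66.5% higher, and none of the 9 genes was called. In that scaling and in the others tried, the sign of the log2 fold change of each of the 9 genes was as given above.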

How the data were processed

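The table deposited by the authors holds raw counts of reads for every gene and tumor, with gene lengths. The submitters' processing notes name HISAT2, HISAT, TopHat2 and build mm39, without roles or versions; gene starts and ends in the table equaled those of GRCm38 for 98.3% of 54409 matched gene IDs. The counting program and strandedness are not given in the sources used here. No 2 libraries of a group were near-identical. The study's methods give 4 mice for the 4 tumors of each group.

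Genes were kept by filterByExpr (minimum count 10, minimum total 15), scaled by TMM and tested without covariates in edgeR 4.0.16 (R 4.3.3), with Benjamini-Hochberg adjustment over 18511 genes. Thresholds follow the study's methods. Standard errors were approximated from the F statistic, and the common biological coefficient of variation was 0.273. log2 CPM profiles used a prior count of 2. The floor of 3 counts was 0.0439 to 0.0843 CPM per tumor, for counting error only. Alternatives used DESeq2 1.42.0, limma 3.58.1, other scalings, filters and edgeR tests, a block, splines of gene length with 5 degrees of freedom and the omission of each tumor; corrections for GC content and the alternatives for levels and ratios were added after the data were seen. Steps were tested on simulated data. Figures used Python 3.11.15 and matplotlib 3.10.9.

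The 9 genes and all lists were chosen with earlier results of these data known. Named were the 9 genes, 12 fixed markers and, from each other list, the genes past both thresholds and those with the highest and lowest log2 fold change. Cd274, Pvr, Cd226, Klrc1, Nt5e, Lgals9, Ceacam1 and Hmgb1 were added after their values were seen. The most abundant gene of a list and the genes of closest profile were named without a test. Promoters came from RefSeq (GRCm38.p6).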

Additional observations from a re-analysis of the deposited data

Results flagged for a closer look

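In 4 of 74 groups of 4 tumors, 1 tumor stood apart from the other 3 by a gap past Dixon's critical value for that group size, and chance alone gives about 3.7. For Havcr2 per CD3, mAb-DXd/IMQ tumor 3 stood at 3.23 beside 1.17 to 1.39, a gap of 0.894 of the group's range. For Tigit per CD3, saline tumor 1 stood at 0.747 beside 0.256 to 0.316, a gap of 0.877. The summed CPM of other inhibitory receptors was 210.5 in mAb-DXd/IMQ tumor 4 beside 250.3 to 257 in the others, a gap of 0.859. The summed CPM of dendritic cell markers was 154 in mAb-DXd/IMQ tumor 3 beside 90.0 to 92.0, a gap of 0.969, and came from Itgax alone (128 CPM beside 64.2 to 66.8). Without Itgax the sum was 25.7 CPM in that tumor beside 24.7 to 27.8. mAb-DXd/IMQ tumor 3 also had the lowest CD3 sum, 10.4 CPM.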

How the results depend on the processing

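With 4 tumors a group, calls depended on method and on single tumors. edgeR called 197 genes, against 358 with no filter beyond 1 count, 810 by DESeq2, which filters differently and gave a p to 31346 genes, 787 by DESeq2 on the genes edgeR tested, 685 by edgeR's likelihood ratio test, 7 by a test against a 1.5-fold change, 122 with the correction for gene length and 126 with that for length and GC content. Leaving out 1 tumor gave 10 to 203 calls, the fewest without saline tumor 3. Of the 9 genes, edgeR called 0 whichever tumor was left out, 1 (Lag3) with RLE factors, with a filter at 1 CPM in 4 tumors and with either correction, 2 (Lag3, Tox) with no filter, the newer quasi-likelihood method and the likelihood ratio test, and DESeq2 called 3 with either filter. Tox could not be tested under the 1 CPM filter. Some genes outside the 9 gained calls: Klrc1 and Mrc1 in 6 of 24 alternatives, S100a9 in 5, Prf1 in 4, Eomes and Cd3e in 3. Foxp3, Pax5 and Cd79b gained a call in 3 of 23 alternatives, Irf4 and Emcn in 2 of 24, Tcf7 and Clec9a in 1 of 24. Csf3r was not called with upper-quartile factors (edgeR FDR = 0.0501) or library size alone (0.0601), nor Nfatc1 (0.0561) or Cd2 (0.0523) with library size alone, nor Cpa3 by limma-voom (FDR = 0.110). Pdcd1lg2, Klrg1, Nfatc1, Cd4, Cd8a, Cd2, Csf3r and Cpa3 were all lost in the test against a 1.5-fold change (edgeR FDR from 0.0983 to 1.000), where Nectin2 had an edgeR FDR of 1.000. Levels per kb moved by less than 1 SD in each alternative, and so did ratios to CD3, with the SDs of both groups combined. This does not show stability, since leaving out 1 of 4 tumors cannot move a group mean by 1 SD. Without saline tumor 1, the saline mean was 10.4 CPM per kb for Tigit and 12.0 for Entpd1, the reverse of their order with all tumors. With 1 tumor left out, the mAb-DXd/IMQ mean over the saline mean per CD3 ran on both sides of 1 for Pdcd1 (0.877 to 1.13), Lag3 (0.865 to 1.22) and Btla (0.740 to 1.03). For Pdcd1 it did so also with Cd3e or Cd3g alone as divisor (0.890 to 1.05). These alternatives, like the GC corrections and DESeq2 on the genes edgeR tested, were chosen after the data were seen.

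Signs turned only for genes that were not called. With 1 tumor left out, log2 fold changes ran from −0.23 to 0.083 for Cd160, −0.47 to 0.084 for Cd96, −0.24 to 0.12 for Trbc1, −0.13 to 0.11 for Il2ra, −0.15 to 0.19 for Cd68, −0.12 to 0.29 for Itgax, −0.0538 to 0.61 for Mmp8, −0.0530 to 0.31 for Vwf, −3.71 to 3.62 for Krt5, −0.17 to 0.13 for Krt8 and −0.15 to 0.0652 for Erbb2. Values that kept their sign but moved by over 1.5 times ran from 0.45 to 0.81 for Tcf7, 0.32 to 0.61 for Adora2b, −1.58 to −0.90 for Mrc1, −1.89 to −0.97 for Clec9a, −2.06 to −1.18 for S100a9, 0.42 to 1.30 for Pgr, 0.48 to 1.02 for Ncr1, 0.09 to 0.43 for Pecam1, 0.22 to 0.63 for Epcam and −0.997 to −0.48 for Cd226. The length correction, with all tumors, gave 0.13 for Havcr2, −0.37 for Tigit, −0.19 for Cd160, −0.24 for Cd96, 0.27 for Vwf, −0.16 for Trbc1, −0.17 for Cd68 and −0.17 for Esr1, each also a move of over 1.5 times. Length and GC content gave −0.36 for Ltbr, and limma-voom 0.12 for Mmp8 and 0.06 for Vwf. With upper-quartile factors Trbc1 was at 6.56e-04, Cd68 at 0.0122 and Erbb2 at 0.0264, and Erbb2 was at 0.00937 with library size alone. Il2ra was at −0.00293 with RLE factors, −0.0059 with no filter, −0.00899 by DESeq2, −0.00462 by DESeq2 on the genes edgeR tested, −0.00882 by the newer quasi-likelihood method and −4.32e-04 by the likelihood ratio test. Cd68 was at 0.00921 and Krt8 at −0.0289 by limma-voom, and Krt8 was at −0.0928 with the length correction and −0.117 with length and GC content.

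Equal tumor numbers in both groups may mark nothing shared, and the labels give no pairs. Correlations of tumors with the same number were −0.170, −0.0546, 0.0794 and −0.0672, and not every tumor correlated best with its own number. With a block for the number, edgeR called 14 genes, 14 with the length correction and 15 with length and GC content, and 0 of the 9 genes, with Lag3 at −0.83 (edgeR FDR = 0.108) and Tox at −2.27 (edgeR FDR = 0.141). The 8 called genes named above were lost in each setting with a block (edgeR FDR from 0.0695 to 0.145), and Nectin2 missed the FDR limit there (edgeR FDR from 0.0991 to 0.152). Under the block Cd68 was at 0.00735, Krt5 at −1.07 and Krt8 at −0.0234. With the block and length correction Krt5 was at −1.13 and Krt8 at −0.135, and with the block, length and GC content at −1.16 and −0.158.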
